A study of Mus musculus with 6 samples.

Results

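The 10 p53 target genes Cdkn1a, Ccng1, Mdm2, Bax, Bbc3, Aen, Phlda3, Trp53inp1, Sesn1 and Gdf15 were read from a table of raw read counts for mouse yolk sac at embryonic day 9.5, as the rows with these symbols. All 10 were found among 25239 genes, and all 10 passed the filter on low counts that left 14002 genes for testing. The study set 3 yolk sac libraries labelled DKO against 3 wild-type (WT) libraries. The DKO embryos were of mixed background with the genotype Cdx1-/-Cdx2fl/fl Actin::CreERT and were given tamoxifen at embryonic day 5.5, whereas the WT embryos were CD1 and untreated. Cre recombinase in the DKO embryos was fused to a tamoxifen-responsive receptor domain and driven by an actin promoter, which is active in most tissues. Strain, the Cdx alleles, Cre and tamoxifen all changed between the groups and cannot be told apart. Whether a library came from 1 yolk sac or a pool is not given in the labels, so the p-values speak of the spread among these 6 libraries, which may be technical.

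The tumour suppressor p53, encoded by Trp53, is a transcription factor that accumulates after DNA damage and other stresses. It binds response elements, each a pair of half-sites, near its target genes and raises their transcription. Cdkn1a and Ccng1 act on the cell cycle, Mdm2 marks p53 for degradation and so closes a feedback loop, Bax, Bbc3 and Aen act in apoptosis, Phlda3 restrains AKT signalling, and Trp53inp1, Sesn1 and Gdf15 take part in wider stress responses. In mouse embryos, loss of Mdm2 is lethal unless p53 is also lost, so the pathway has to be held in check during development.

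The response elements were looked for in RefSeq promoter windows of GRCm38.p6, each with 250 bases before and 50 bases after an annotated transcription start. A match was 2 p53 half-sites of 10 bases with a spacer of at most 1 base, with at most 3 of 20 positions off the p53 consensus and with the core C and G of both half-sites in place. The consensus reads the same on both strands, and the limit of 3 was chosen with the matches in view. Of the 10 genes, 9 had a window and Trp53inp1 had none. A match stood in a window of 6 of these 9 genes, against 3.27% of 27025 genes with a window and 2.82% of all 32851 windows. Cdkn1a and Ccng1 had 1 mismatch, as did or bettered 0.11% of all windows, Bax had 2, and Aen, Bbc3 and Sesn1 had 3. The windows of Gdf15 and Phlda3 had at least 5 mismatches and so held no match. The Phlda3 window ends inside a stretch that fits the consensus of a half-site up to that edge. A pair of half-sites reaching past the edge was not scored. Mdm2 had an exact half-site in its window, as did 9.55% of genes with a window, but no pair; the p53 elements known for Mdm2 lie in its first intron, outside this window. The 6 windows are shown because they hold a match to the consensus that p53 is known to bind, with the matched half-sites in capitals. A match is a description of the sequence and not a measurement of binding.
Cdkn1a: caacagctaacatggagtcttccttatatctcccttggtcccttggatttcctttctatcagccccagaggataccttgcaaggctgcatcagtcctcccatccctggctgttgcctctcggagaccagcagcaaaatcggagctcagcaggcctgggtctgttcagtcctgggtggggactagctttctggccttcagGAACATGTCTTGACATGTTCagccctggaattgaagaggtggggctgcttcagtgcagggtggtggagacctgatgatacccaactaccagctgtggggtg
Ccng1: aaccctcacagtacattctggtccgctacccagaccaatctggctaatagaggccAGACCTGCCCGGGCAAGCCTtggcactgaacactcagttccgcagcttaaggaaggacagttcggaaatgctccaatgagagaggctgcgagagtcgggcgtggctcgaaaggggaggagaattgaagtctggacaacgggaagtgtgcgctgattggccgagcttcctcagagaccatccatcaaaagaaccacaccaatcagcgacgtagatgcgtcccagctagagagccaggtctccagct
Bax: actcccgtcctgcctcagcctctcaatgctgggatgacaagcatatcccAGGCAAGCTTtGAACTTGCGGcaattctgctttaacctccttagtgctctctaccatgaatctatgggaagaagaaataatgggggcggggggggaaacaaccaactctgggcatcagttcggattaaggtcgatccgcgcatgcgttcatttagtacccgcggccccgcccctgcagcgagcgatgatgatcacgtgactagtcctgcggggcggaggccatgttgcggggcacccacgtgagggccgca
Aen: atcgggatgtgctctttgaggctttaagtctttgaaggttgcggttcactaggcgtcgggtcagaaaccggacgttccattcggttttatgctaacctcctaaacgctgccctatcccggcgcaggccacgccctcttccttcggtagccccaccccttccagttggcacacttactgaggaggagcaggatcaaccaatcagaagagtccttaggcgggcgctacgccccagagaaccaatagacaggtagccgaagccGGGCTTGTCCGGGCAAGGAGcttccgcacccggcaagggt
Bbc3: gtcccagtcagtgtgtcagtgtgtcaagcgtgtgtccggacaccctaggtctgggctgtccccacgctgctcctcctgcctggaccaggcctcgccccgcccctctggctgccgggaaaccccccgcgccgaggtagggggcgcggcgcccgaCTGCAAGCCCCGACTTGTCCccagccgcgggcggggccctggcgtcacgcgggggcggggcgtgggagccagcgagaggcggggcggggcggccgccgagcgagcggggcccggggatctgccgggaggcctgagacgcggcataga
Sesn1: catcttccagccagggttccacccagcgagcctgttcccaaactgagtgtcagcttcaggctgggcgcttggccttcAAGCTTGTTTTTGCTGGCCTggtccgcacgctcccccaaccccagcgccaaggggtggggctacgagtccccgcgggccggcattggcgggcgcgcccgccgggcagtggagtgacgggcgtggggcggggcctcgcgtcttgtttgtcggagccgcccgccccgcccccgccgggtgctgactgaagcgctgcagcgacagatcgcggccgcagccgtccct
The Cdkn1a window is chr17:29090729-29091028 on the + strand, with its match 51 to 32 bases before the start. The Ccng1 window is chr11:40755237-40755536 on the - strand, with its match 195 to 176 bases before the start. The Bax window is chr7:45466849-45467148 on the - strand, with its match 201 to 181 bases before the start. The Aen window is chr7:78895677-78895976 on the + strand, and its match runs from base 11 to base 30 after that start; Aen has a second annotated start with the window chr7:78895808-78896107, and the same match lies 121 to 102 bases before it. The Bbc3 window is chr7:16309333-16309632 on the + strand, with its match 97 to 78 bases before the start. The Sesn1 window, at the inner of its 2 starts, is chr10:41887189-41887488 on the + strand, with its match 173 to 154 bases before the start. The genes themselves span chr17:29090979-29100722 (Cdkn1a, +), chr11:40748552-40755309 (Ccng1, -), chr10:117688875-117710758 (Mdm2, -), chr7:45461695-45466903 (Bax, -) and chr7:16308398-16318334 (Bbc3, +). The others span chr7:78895927-78911209 (Aen, +), chr1:135766085-135769134 (Phlda3, +), chr4:11156441-11174379 (Trp53inp1, +), chr10:41810574-41908436 (Sesn1, +) and chr8:70629393-70632470 (Gdf15, -).

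Library totals ran from 24242663 to 56732836 counts in DKO and from 20040601 to 26855337 counts in WT. Levels are given as CPM, read counts scaled to library size with TMM factors, and 3 counts corresponded to 0.0529 to 0.15 CPM before scaling. Cdx2 stood at 23.0 to 25.7 CPM in DKO and 16.6 to 20.3 CPM in WT, and Cdx1 had 10 to 14 counts per library in DKO and 0 to 8 in WT. Neither was lower in DKO in these whole-gene counts, so every direction rests on the labels. Across genes, log2 CPM correlated at 0.925 to 0.969 between DKO libraries and at 0.989 to 0.990 between WT libraries, and library 3 labelled DKO stood apart most. Visceral endoderm markers (11 of 11 in the table) summed to 19925 to 56941 CPM in DKO and 30096 to 35931 CPM in WT. Most of the DKO spread came from Afp, at 2222, 11541 and 31199 CPM in DKO libraries 1, 2 and 3. In WT, Afp stood at 6784 to 9856 CPM. In DKO library 3, 8 of the 11 lay above every WT library, against 41.5% of all genes tested. Apob, Cubn and Lrp2 lay below every WT library there, as did 40.5% of all genes tested. Primitive erythroid markers (10 of 10) summed to 2780 to 10343 CPM in DKO and 8782 to 13654 CPM in WT, the lowest in DKO library 3. Mesoderm and mesothelium markers (8 of 8) summed to 1876, 6618 and 7838 CPM in DKO libraries 1, 2 and 3 and to 2482 to 4661 CPM in WT, and endothelial markers (8 of 8) to 368 to 560 CPM in DKO and 429 to 525 CPM in WT. The collagen genes Col1a1, Col1a2 and Col3a1 made up most of the mesoderm and mesothelium sum in every library. The endothelial markers were split in DKO library 3. Pecam1, Esam and Cldn5 lay above every WT library there, and Kdr, Tek and Tie1 below. In a bulk library, fewer cells of a type and less RNA per cell cannot be told apart.

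No p53 target gene differed between the groups past the threshold, an adjusted p under 0.05 from edgeR over all 14002 genes. Of all genes 0.0357% did, 0.0143% higher and 0.0214% lower in DKO. At an unadjusted p under 0.05, Cdkn1a and Gdf15 were higher and Aen was lower in DKO, 3 of 10 against 9.09% of all genes (5.55% higher and 3.54% lower). DESeq2 also called 0 of the 10, with 1.93% of its genes called (1.16% higher and 0.77% lower). At an unadjusted p under 0.05 by DESeq2, the same 3 genes passed, against 10.6% of all genes (6.64% higher and 3.97% lower). The fold change was positive for 9 of the 10, against 51.9% of all genes tested, with a median log2 fold change of 0.29 against 0.013 over all genes. The 10 genes and the related lists were chosen with earlier results of these data known. The shares set beside all genes, here and below, therefore describe the lists and do not test them. The adjusted p ran from 0.432 for Cdkn1a to 0.887 for Bax. The groups did not overlap in 4 genes, Cdkn1a, Ccng1 and Bbc3 (higher in DKO) and Aen (lower in DKO), where 15.5% of all genes had groups that did not overlap, 7.93% higher and 7.61% lower in DKO. Without DKO library 1, edgeR called 2 of the 10, Cdkn1a and Gdf15, both higher, beside 4.42% of all genes (3.02% higher and 1.4% lower). Leaving out any other library left 0 of the 10 called, with 0.0567% of all genes called without DKO library 3 (0.0142% higher and 0.0425% lower). With limma-voom and library quality weights, 6 of the 10 passed, Aen lower and Cdkn1a, Gdf15, Ccng1, Sesn1 and Trp53inp1 higher, beside 19.0% of all genes (9.96% higher and 9.04% lower).

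**Figure D1:**
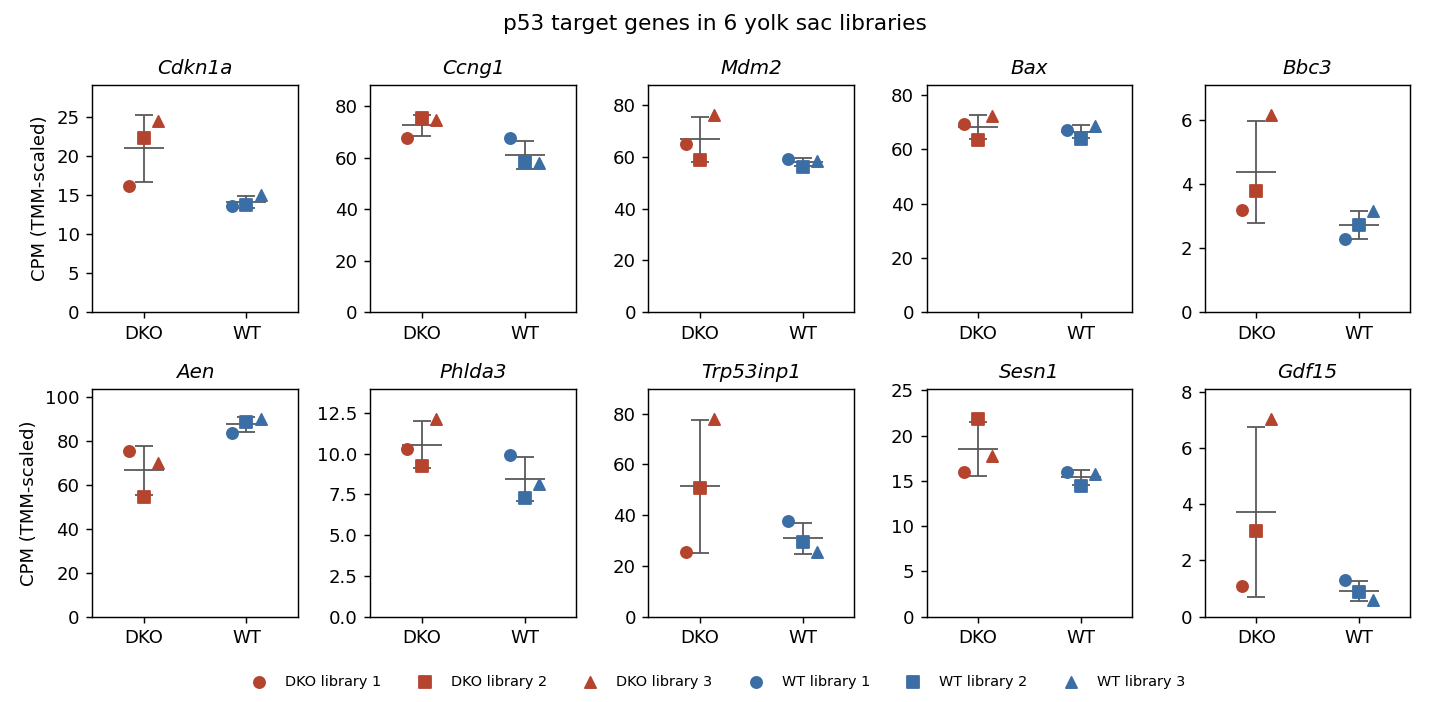
Level of each p53 target gene in every library, in CPM after TMM scaling on axes that start at 0, with DKO left and WT right; points are libraries, horizontal bars are means and error bars are SD (n = 3 each). Aen lies lower in all 3 DKO libraries than in any WT library, Bax overlaps, and Gdf15 and Trp53inp1 spread widely among the DKO libraries.

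Cdkn1a, which encodes the cyclin-dependent kinase inhibitor p21, stood at 16.1, 22.2 and 24.4 CPM in DKO libraries 1, 2 and 3, against 13.6, 13.6 and 14.9 CPM in WT libraries 1, 2 and 3. All 3 DKO libraries lay above all 3 WT libraries, with DKO library 1 nearest to them. The means were 20.9 ± 4.31 CPM in DKO and 14.05 ± 0.776 CPM in WT (SD, n = 3 each). The log2 fold change was 0.58 (SE 0.18, 95% interval 0.15 to 1.01) with an adjusted p of 0.432 by edgeR. Without DKO library 1 it was 0.73 (adjusted p 0.039), and without DKO library 3 it was 0.45. Counts for Cdkn1a ran from 398 to 1352 in DKO and from 281 to 365 in WT, so counting error was small beside the spread among DKO libraries. An unnamed antisense transcript model shares 273 exon bases with Cdkn1a, and a same-strand model shares 192 with Bax; neither has a row of its own in the count table, and reads there cannot be told apart.

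Ccng1 encodes cyclin G1, which recruits a phosphatase to MDM2. Its level was 67.7, 75.4 and 74.6 CPM in DKO libraries 1, 2 and 3, against 67.6, 58.4 and 57.9 CPM in WT libraries 1, 2 and 3. DKO library 1 and WT library 1 were nearly equal, and the groups otherwise separated. The log2 fold change was 0.24 (SE 0.10, adjusted p 0.554 by edgeR). Ccng1 was, with Phlda3, 1 of 2 genes among the 10 whose coefficient of variation was not higher in DKO, at 5.82% in DKO and 8.88% in WT. The other 8 genes varied more in DKO, with 20.6% in DKO and 5.52% in WT for Cdkn1a and 81.3% in DKO and 38.4% in WT for Gdf15.

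Mdm2, the E3 ubiquitin ligase of p53, stood at 64.8, 58.9 and 76.2 CPM in DKO libraries 1, 2 and 3, against 59.1, 56.0 and 58.5 CPM in WT libraries 1, 2 and 3. DKO library 2 lay within the WT range and the other DKO libraries above it, so the groups overlapped. The log2 fold change was 0.20 (95% interval -0.079 to 0.49, adjusted p 0.637 by edgeR) and 0.090 without DKO library 3. Trp53 itself stood at 112, 91.4 and 76.7 CPM in DKO libraries 1, 2 and 3, against 96.8, 96.8 and 106 CPM in WT libraries 1, 2 and 3. Its groups overlapped, with DKO library 1 highest and DKO library 3 lowest of all 6, and the log2 fold change was -0.10 (SE 0.15, adjusted p 0.822), or 0.017 without DKO library 3 and -0.25 without DKO library 1. p53 is regulated largely at the level of the protein, which these data do not measure. Mdm4, a relative of Mdm2 that also binds p53, averaged 78.6 ± 4.5 CPM in DKO and 75.2 ± 8.14 CPM in WT (log2 fold change 0.064, adjusted p 0.847).

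Bax, whose product permeabilises the outer mitochondrial membrane, stood at 69.1, 63.3 and 72.1 CPM in DKO libraries 1, 2 and 3, against 66.9, 63.8 and 68.3 CPM in WT libraries 1, 2 and 3. The groups overlapped almost wholly, and the log2 fold change of 0.039 had a 95% interval of -0.18 to 0.26 (adjusted p 0.887 by edgeR), with a sign that turned without DKO library 3 (-0.0082) and with limma-voom using library quality weights (-0.042). Per kilobase of exon, Bax had the highest level of the 10 genes, at 43.2 CPM per kb in DKO and 42.1 CPM per kb in WT. The ratio of Bax to Bcl2 counts, Bcl2 being an inhibitor of apoptosis, was 11.8, 11.6 and 13.8 in DKO libraries 1, 2 and 3, against 14.1, 11.9 and 12.8 in WT libraries 1, 2 and 3. The log2 ratio differed by -0.064 between the group means (exact two-sided permutation p = 0.5, the smallest possible being 0.1).

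Bbc3 encodes PUMA, a BH3-only activator of apoptosis. It was low, at 3.2, 3.78 and 6.18 CPM in DKO libraries 1, 2 and 3, against 2.3, 2.72 and 3.18 CPM in WT libraries 1, 2 and 3, from 56 to 342 counts per library. The groups did not overlap, but DKO library 1 lay only just above WT library 3. The log2 fold change was 0.69 (SE 0.31, 95% interval -0.051 to 1.43, adjusted p 0.57 by edgeR) and 0.36 without DKO library 3.

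Aen, a nuclease that degrades DNA during apoptosis, was the gene of the 10 with a negative log2 fold change. It stood at 75.7, 54.3 and 70.1 CPM in DKO libraries 1, 2 and 3, against 83.7, 88.9 and 90.1 CPM in WT libraries 1, 2 and 3. All 3 DKO libraries lay below all 3 WT libraries, and DKO library 2, not library 3, was lowest. The means were 66.7 ± 11.1 CPM in DKO and 87.6 ± 3.4 CPM in WT (SD, n = 3 each), giving -0.39 as log2 fold change (SE 0.14, 95% interval -0.72 to -0.064, adjusted p 0.493 by edgeR). With each library left out in turn it ran from -0.50 to -0.27. The match to the p53 element printed above lies between the 2 annotated Aen starts.

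Phlda3, which competes with AKT for membrane lipids, stood at 10.3, 9.26 and 12.1 CPM in DKO libraries 1, 2 and 3, against 9.95, 7.28 and 8.14 CPM in WT libraries 1, 2 and 3. The groups overlapped through WT library 1, and the log2 fold change was 0.32 (SE 0.19, adjusted p 0.637 by edgeR), or 0.20 without DKO library 3. Sesn1, a sestrin that restrains mTORC1, stood at 16.0, 21.9 and 17.7 CPM in DKO libraries 1, 2 and 3, against 16.0, 14.4 and 15.7 CPM in WT libraries 1, 2 and 3. DKO library 1 fell within the WT range, and DKO library 2 was the highest. Its log2 fold change was 0.27 (SE 0.15, adjusted p 0.634) and 0.13 without DKO library 2.

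Trp53inp1, a p53-induced nuclear protein that acts in cell death and autophagy, stood at 25.5, 50.8 and 78.0 CPM in DKO libraries 1, 2 and 3, against 37.6, 29.5 and 25.5 CPM in WT libraries 1, 2 and 3. DKO library 1 was near the bottom of the WT range and DKO library 3 far above it. The log2 fold change of 0.74 (SE 0.39, 95% interval -0.20 to 1.67, adjusted p 0.616 by edgeR) was 0.30 without DKO library 3 and 1.06 without DKO library 1 (adjusted p 0.0522).

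Gdf15, a secreted stress cytokine of the TGF-beta superfamily, had the lowest level and the largest fold change of the 10. It stood at 1.09, 3.06 and 7.05 CPM in DKO libraries 1, 2 and 3, against 1.3, 0.874 and 0.596 CPM in WT libraries 1, 2 and 3, from 27 to 390 counts in DKO and 12 to 35 counts in WT. DKO library 1 lay within the WT range, and the difference came from the other DKO libraries. The means were 3.74 ± 3.04 CPM in DKO and 0.923 ± 0.354 CPM in WT (SD, n = 3 each). The log2 fold change was 2.01 (SE 0.69, 95% interval 0.35 to 3.68, adjusted p 0.488 by edgeR), with 2.43 (adjusted p 0.0471) without DKO library 1 and 1.16 without DKO library 3. In humans Gdf15 is made in quantity by the placenta. Trophoblast markers (10 of 10 in the table) summed to 114.5, 62.6 and 398 CPM in DKO libraries 1, 2 and 3. In WT they summed to 31.8 to 65.9 CPM, so DKO library 2 lay within the WT range. Prl2c2 alone gave 235 CPM in DKO library 3. Above every WT library were 7, 4 and 7 of the 10 in DKO libraries 1, 2 and 3. The shares over all genes tested were 34.1%, 34.7% and 41.5%. Of the trophoblast markers, Tpbpa was at 0 counts in DKO library 2 and WT library 3, and Ctsj at 0 in DKO library 1 and all 3 WT libraries. Macrophage markers (5 of 5) summed to 6.73 to 92.0 CPM in DKO and 7.54 to 11.9 CPM in WT, again highest in DKO library 3, with Adgre1 at 0 in DKO library 1 and WT library 2 and Cx3cr1 at 0 in DKO library 1. Decidua markers (6 of 6) summed to 63.6 to 152 CPM in DKO and 63.6 to 87.3 CPM in WT, with none at 0. In DKO library 3, 5 of the 6 lay above every WT library, against 41.5% of all genes tested. Of these, Prlr was only just above, at 54.5 CPM against 54.1 CPM in WT library 1, and Pgr had 39 counts. Cryab lay below every WT library in all 3 DKO libraries, as did 7.61% of all genes tested. It stood at 14.1, 12.4 and 12.5 CPM in DKO libraries 1, 2 and 3 and 15.4 to 16.7 CPM in WT. The sum of the mesoderm and mesothelium markers, like Gdf15 and Trp53inp1, was lowest in DKO library 1 and highest in DKO library 3 among the DKO libraries. So were the sums of the visceral endoderm, macrophage and decidua markers. Of the decidua markers, however, only Dcn had this order itself. All the macrophage markers had it, as did the visceral endoderm markers apart from Apob and Cubn. Within the mesoderm and mesothelium list, only the collagen genes Col1a1, Col1a2 and Col3a1 had this order. Hand1, Foxf1, Pdgfra, Bmp4 and Tbx20 ran the other way, highest in DKO library 1 and lowest in DKO library 3. The part of any of these cells in the differences of Gdf15 and Trp53inp1 was not tested.

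**Figure D2:**
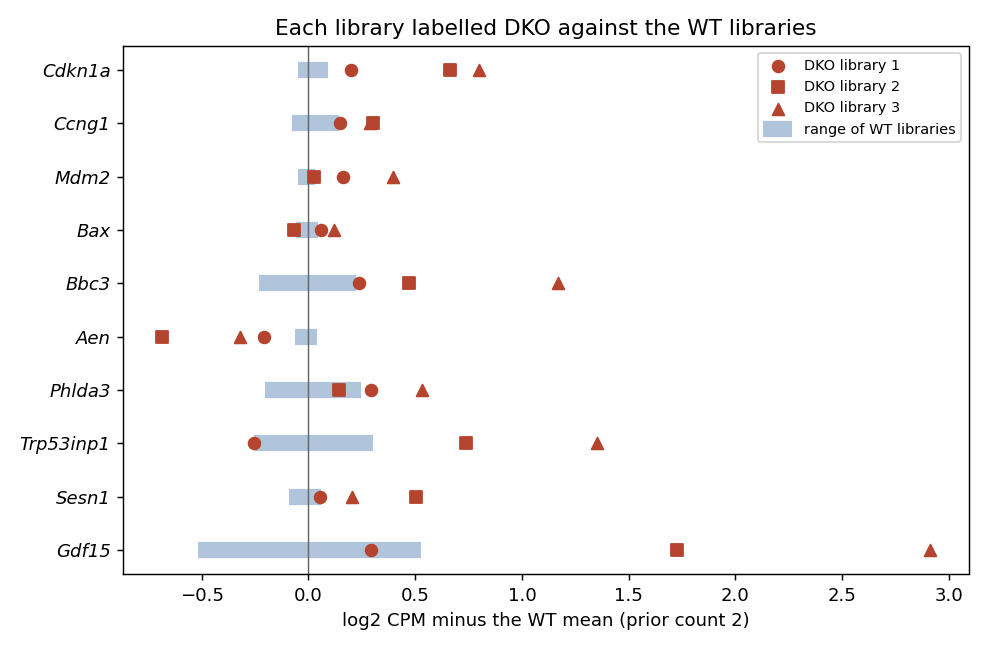
Difference of each DKO library from the mean of the WT libraries, in log2 CPM with a prior count of 2, for the 10 genes; markers are DKO libraries and the bar is the range of the WT libraries. DKO library 3 lies at 2.91 for Gdf15 and 1.35 for Trp53inp1, while DKO library 1 lies at 0.29 and -0.26 for the same genes, the lowest of the 3 in both.

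DKO library 3 was the highest of all 6 libraries for 7 of the 10 genes, against 34.7% of all genes tested. It lay above every WT library for 9 of the 10, against 41.5% of all genes tested. DKO libraries 1 and 2 each lay above every WT library for 6 of the 10, against 34.1% and 34.7% of all genes. The median difference from the WT mean over the 10 genes was 0.16 in DKO library 1, 0.39 in DKO library 2 and 0.46 in DKO library 3 on the log2 scale, while over all genes it was at most 0.0083 in each. The median of the 10 fold changes was 0.35 without DKO library 1, 0.34 without library 2 and 0.26 without library 3. Without DKO library 3, then, the median stayed near that with all libraries, although the fold changes of Gdf15, Trp53inp1, Bbc3, Mdm2 and Phlda3 were smaller by over 1.5 times and that of Bax turned negative.

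**Figure D3:**
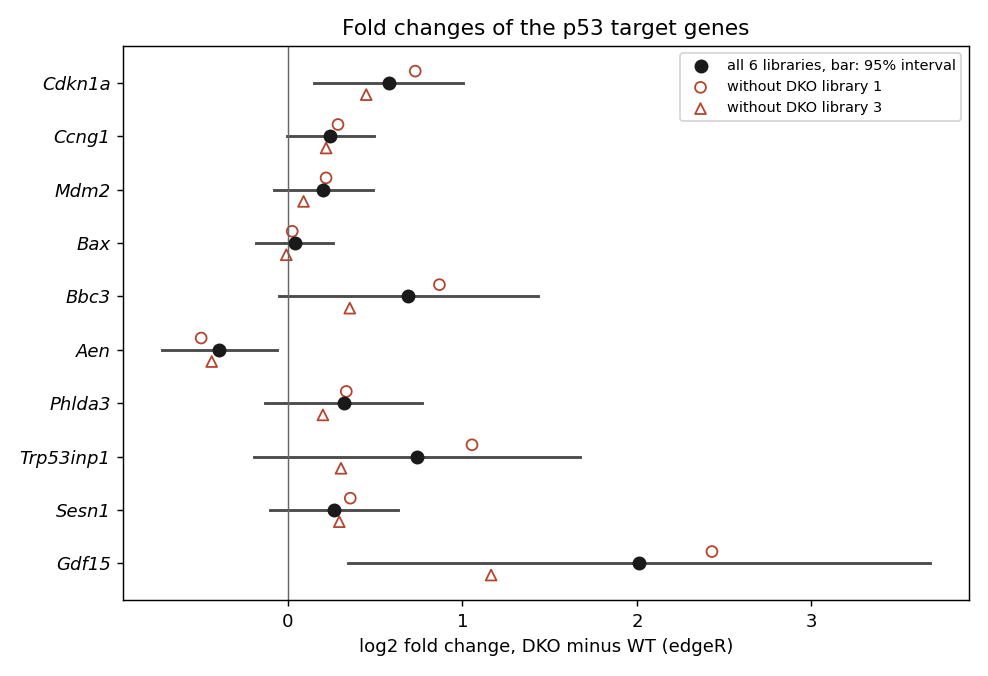
Log2 fold change of each gene, DKO minus WT, from edgeR; filled points use all 6 libraries with 95% intervals, open circles leave out DKO library 1 and open triangles leave out DKO library 3. The intervals of Cdkn1a (0.15 to 1.01), Gdf15 (0.35 to 3.68) and Aen (-0.72 to -0.064) exclude 0 before adjustment for multiple testing.

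Levels per kilobase of exon set the 10 genes in order within a group. In WT, Bax (42.1 CPM per kb) was followed by Ccng1 (17.5), Aen (15.1), Mdm2 (11.4), Phlda3 (5.43), Trp53inp1 (4.77), Cdkn1a (3.95), Sesn1 (3.87), Bbc3 (1.29) and Gdf15 (0.498). In DKO, Mdm2 (13.1 CPM per kb) stood above Aen (11.5), and Trp53inp1 (7.95) above Phlda3 (6.78), the reverse of their order in WT, but in each of these pairs the DKO levels lay within 1 SD of each other. In WT, neighbours from Phlda3 down to Sesn1 also lay within 1 SD of each other, so their order there is not resolved.

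The other p53 targets were a list of 32 genes, of which 30 were tested; Ddit4l and the long noncoding RNA Trp53cor1 were too low. None of the 30 passed the threshold in either direction. At an unadjusted p under 0.05, 2 of the 30 were higher and 0 lower, against 5.55% higher and 3.54% lower of all genes. A positive fold change was seen in 21, against 51.9% of all genes, and the median of the list was 0.17. Plk3, a polo-like kinase of stress checkpoints, averaged 7.56 ± 1.17 CPM in DKO and 4.45 ± 0.544 CPM in WT (SD, n = 3 each), which is 0.77 on the log2 scale (SE 0.20, adjusted p 0.362 by edgeR). Its groups did not overlap, and the fold change was 0.65 without DKO library 3. Btg2, an antiproliferative gene, averaged 22.2 ± 2.86 CPM in DKO and 17.4 ± 1.23 CPM in WT (log2 fold change 0.35, adjusted p 0.533). Perp, a desmosomal protein linked to apoptosis, lay lower in all 3 DKO libraries, like Aen, at 9.57, 7.74 and 10.9 CPM in DKO libraries 1, 2 and 3, against 13.1, 12.9 and 11.2 CPM in WT libraries 1, 2 and 3 (log2 fold change -0.40, adjusted p 0.569). Dcxr, a sugar reductase, stood at 1.40 (SE 0.63), or 0.49 without DKO library 3. Sesn2, a second sestrin, stood at 0.51 (SE 0.23), or 0.21 without DKO library 3, while the 2 genes of the list with the highest CPM, Rbm38 and Ei24, stood at -0.046 and -0.084.

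Of p53 and its regulators 16 of 18 were tested, the p53 relatives Trp63 and Trp73 being too low. None passed the threshold or had an unadjusted p under 0.05, which 9.09% of all genes had. Fold changes were positive for 7 and negative for 9 with a median of -0.042, against 51.9% positive of all genes. The ubiquitin ligase gene Rchy1 and the checkpoint kinase gene Chek2 each stood at 0.24, and in both the DKO libraries lay above the WT libraries. That was 2 of the 16 genes, against 7.93% of all genes tested. Cdkn2a, whose locus encodes the MDM2 inhibitor ARF beside the kinase inhibitor p16, stood at 7.5, 14.1 and 21.2 CPM in DKO libraries 1, 2 and 3, against 8.84, 8.16 and 9.58 CPM in WT libraries 1, 2 and 3. DKO library 1 was the lowest of all 6 and DKO library 3 the highest, so the groups overlapped, and the log2 fold change was 0.69 (SE 0.36, adjusted p 0.614 by edgeR). It was 0.29 without DKO library 3, and 0.995 (adjusted p 0.0498) without DKO library 1, a fit that called 3.02% of all genes higher. Gene-level counts do not separate ARF from p16. Hipk2, a kinase that phosphorylates p53, stood at -0.70 (SE 0.47), with 13.8 CPM in DKO library 3 and -0.30 without that library, or -1.13 without DKO library 1. The kinase gene Atm stood at -0.24, the deubiquitinase gene Usp7 at -0.16 and the acetyltransferase gene Ep300 at -0.050. Without DKO library 3 these were -0.11 for Atm, -0.021 for Usp7 and 0.054 for Ep300, and without DKO library 1 they were -0.40 for Atm, -0.35 for Usp7 and -0.12 for Ep300.

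All 12 listed BCL-2 family genes beside Bax and Bbc3 were tested and none passed the threshold. Fold changes were positive for 7 (median 0.091), against 51.9% of all genes. At an unadjusted p under 0.05, 1 gene was higher and 0 lower, against 5.55% higher and 3.54% lower of all genes. That gene was Bmf, a BH3-only sensitiser to apoptosis, with 26.1, 46.2 and 37.1 CPM in DKO libraries 1, 2 and 3, against 15.9, 16.5 and 15.9 CPM in WT libraries 1, 2 and 3. Every DKO library lay well above the narrow WT range, and the log2 fold change was 1.18 (SE 0.21, 95% interval 0.68 to 1.69, adjusted p 0.199 by edgeR), or 1.17 without DKO library 3 and 1.37 (adjusted p 0.02) without DKO library 1. The fit without DKO library 1 called 3.02% of all genes higher. DESeq2 called Bmf, with an adjusted p of 0.00022, beside 1.16% of its genes called higher. Bok stood at 0.68 (SE 0.32), or 0.43 without WT library 1, and Bik at -0.68 (SE 0.56), or -0.28 without DKO library 1 and -1.10 without DKO library 3. Bid stood at -0.18, or -0.31 without DKO library 3, and Bad at 0.17, or 0.071 without DKO library 3 and 0.31 without DKO library 1. The survival genes with the highest CPM, Mcl1 and Bcl2l1, stood at 0.080 and -0.058, and Bcl2 at 0.10.

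The 16 cell cycle genes that p21 is known to hold down through the DREAM repressor complex were all tested, with 0 past the threshold, 9 positive and 7 negative, and a median of 0.027. Of all genes tested, 51.9% were positive. At an unadjusted p under 0.05, 2 of the 16 were higher and 0 lower, against 5.55% higher and 3.54% lower of all genes. Cyclin B2, Ccnb2, averaged 87.7 ± 7.2 CPM in DKO and 71.0 ± 0.938 CPM in WT (log2 fold change 0.30, SE 0.094, adjusted p 0.432 by edgeR), and E2f1 stood at 0.39 (SE 0.16). Cdc25c, Cdk1 and Ccna2 stood at 0.24, 0.19 and 0.11. Without DKO library 3, E2f1 stood at 0.21 and Cdk1 at 0.075, and without DKO library 1, Cdk1 stood at 0.30 and Ccna2 at 0.071. The proliferation markers Mki67 and Top2a stood at -0.11 and -0.078, and both signs turned without DKO library 3.

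Gdf15 is also a known target of the integrated stress response, in which ATF4 and CHOP act in place of p53. Of 14 listed genes of that response 12 were tested, and none passed the threshold. Chac1 and Nupr1 did not pass the filter on low counts. At an unadjusted p under 0.05, 3 of the 12 were higher and 0 lower, against 5.55% higher and 3.54% lower of all genes. These 3 were Ddit4, Psat1 and Cebpb, and did not include Atf4 or Ddit3, which encodes CHOP. Fold changes were positive for 9, against 51.9% of all genes, and the median of the list was 0.30. Ddit4, an inhibitor of mTORC1 that p53 and hypoxia also induce, stood at 5.07, 14.8 and 11.9 CPM in DKO libraries 1, 2 and 3, against 1.78, 2.28 and 1.54 CPM in WT libraries 1, 2 and 3. Every DKO library lay above every WT library, and the log2 fold change was 2.51 (SE 0.43, 95% interval 1.48 to 3.54, adjusted p 0.183 by edgeR) and 2.42 without DKO library 3. Without DKO library 1 it was 2.84 (adjusted p 0.02). DESeq2 called Ddit4, with an adjusted p of 4.54e-06, beside 1.16% of its genes called higher. The serine synthesis gene Psat1 stood at 0.45 (SE 0.15), Cebpb at 0.62 (SE 0.24), Atf3 at 0.87 (SE 0.38), Trib3 at 0.47 (SE 0.21) and the cystine transporter gene Slc7a11 at -0.053. Without DKO library 3, Atf3 stood at 0.35 and Slc7a11 at 0.035. Without DKO library 1, Psat1 stood at 0.58 (adjusted p 0.0389) and Cebpb at 0.84 (adjusted p 0.0313) by edgeR, both past the threshold. That fit called 3.02% of all genes higher and 1.4% lower.

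**Figure D4:**
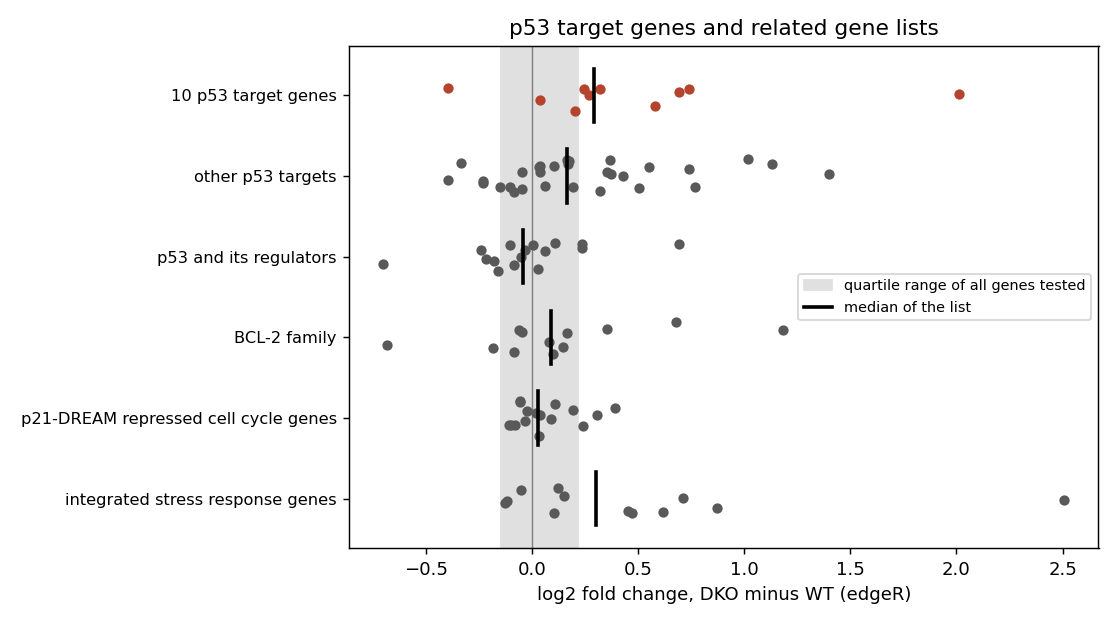
Log2 fold changes, DKO minus WT, of the 10 p53 target genes and of 5 related lists; each point is a tested gene, black bars are list medians and the grey band runs from the lower to the upper quartile of all genes tested. The medians are 0.29 for the 10 genes, 0.17 for other p53 targets, 0.30 for the integrated stress response and between -0.042 and 0.091 for the other lists.

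Genes with a pattern over the 6 libraries most like 3 of these targets were ranked by the root mean square difference of mean-centred log2 CPM, among genes of at least 5 CPM outside the 10. Nearest to Cdkn1a were Taok3 (0.0521), Cast (0.0599) and Oip5 (0.0656). Taok3 stood at 53.7, 68.9 and 73.3 CPM in DKO libraries 1, 2 and 3, against 44.0, 43.0 and 45.4 CPM in WT libraries 1, 2 and 3. The nearest of the 10 to Cdkn1a was Bbc3, at 0.192. Genes outside the 10 were drawn from 10620 candidates, but the nearest of the 10 from only 9, without the 5 CPM limit. With so many more candidates, a nearer gene outside the 10 was likely beforehand, so these distances cannot be set against each other. Nearest to Mdm2 were Vamp2 (0.0349), Elovl6 (0.0378) and Repin1 (0.0399), and Bax among the 10 (0.0996). Nearest to Gdf15 were Urah (0.199), Slco2a1 (0.215) and Ell3 (0.245), and Trp53inp1 among the 10 (0.610). Slco2a1, a prostaglandin transporter gene, stood at 10.6, 35.6 and 91.6 CPM in DKO libraries 1, 2 and 3, against 15.8, 10.6 and 9.88 CPM in WT libraries 1, 2 and 3, so DKO library 1 again lay within the WT range.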

How the data were processed

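Raw read counts for each gene symbol, deposited by the authors, were the input. The submitters' processing notes name mm10, SAMtools and DESeq2 without versions or roles. Per the file headers the counts came from subset BAM files. For the aligner, counter, annotation and strand setting, nothing is given in the sources used here. In GENCODE M21, exons of Cdkn1a and Bax overlap another annotated gene, so reads there cannot be assigned with certainty.

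DKO and WT were set against each other in edgeR 4.0.16 (R 4.3.3; quasi-likelihood F test, TMM, filterByExpr, robust shrinkage, group as the only term), with Benjamini-Hochberg adjustment over 14002 genes at a threshold of 0.05. Each standard error is the size of the log2 fold change divided by √F. The procedure was also run on simulated counts. These had the same spread in both groups, so that run does not cover the wider spread among the DKO libraries. Alternatives used DESeq2 1.42.0, limma 3.58.1, other scaling, filters, a replicate block and each library left out. Columns without a sample numbered 0. Gene positions and promoter windows came from RefSeq on GRCm38.p6, and exon lengths from GENCODE M21 on GRCm38, the assembly that mm10 names.

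The 10 genes and the gene lists were chosen with earlier results of these data known. The text names all 10 genes, Trp53, Mdm4 and Bcl2, and for each related list the 5 tested genes with the smallest unadjusted p and the 2 with the highest mean CPM, plus the 3 nearest patterns to Cdkn1a, Mdm2 and Gdf15. Pmaip1 and Ephx1 were named after their values were seen.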

Additional observations from a re-analysis of the deposited data

How the results depend on the processing

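The count of genes past the threshold was 5 with edgeR, and was 8 without a filter, 8 with a filter of at least 1 CPM in every library of a group, 1 with a replicate block, 296 with DESeq2 and 2661 with limma-voom using library quality weights. Leaving out each library in turn gave 0 to 634 genes. Of the 10 p53 targets, 0 passed with edgeR, 6 with quality weights (Aen lower, and Cdkn1a, Gdf15, Ccng1, Sesn1 and Trp53inp1 higher, beside 19.0% of all genes) and 0 to 2 with each library left out. Those weights were 0.223, 3.7 and 0.198 for DKO libraries 1, 2 and 3 and 1.27 to 2.59 for WT, so that fit rested on DKO library 2, and the cause of its calls was not tested further. Over the 17 alternatives, 9 of the 10 genes kept their sign; Bax stood at -0.042 with quality weights and between -0.0082 and 0.085 with a library left out. With quality weights Rbm38 stood at 0.091 and Mcl1 at -0.035. With a library left out, Ep300 ran from -0.14 to 0.054, Mki67 from -0.24 to 0.073, Top2a from -0.22 to 0.033, Slc7a11 from -0.16 to 0.035 and Trp53 from -0.25 to 0.017, each positive only without DKO library 3; the cause was not tested.

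The replicate numbers did not pair the libraries: deviations of same-numbered libraries from their group means correlated at -0.37, -0.28 and -0.19 across genes, and no library correlated best with its own number. With the replicate block 0 of the 10 passed, Cdkn1a stood at 0.56 and Gdf15 at 1.70, and for the Bax to Bcl2 ratio an exact sign flip over the numbered pairs gave p = 0.75 for a log2 difference of -0.064. At 12 to 35 counts per WT library, Gdf15 was the gene among the 10 whose precision depth limited most.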

Other observations

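Pmaip1, which encodes the BH3-only protein NOXA, and Ephx1, an epoxide hydrolase, are p53 targets picked out here after their values were seen. Pmaip1 stood at 2.84, 6.25 and 18.2 CPM in DKO libraries 1, 2 and 3, against 5.2, 4.9 and 3.42 CPM in WT libraries 1, 2 and 3. DKO library 1 was the lowest of all 6 and DKO library 3 the highest, and the log2 fold change was 1.02 (SE 0.64, adjusted p 0.652 by edgeR), or 0.016 without DKO library 3. Ephx1 stood at 0.689, 0.977 and 2.59 CPM in DKO libraries 1, 2 and 3, against 0.78, 0.631 and 0.546 CPM in WT libraries 1, 2 and 3, and the log2 fold change was 1.13 (SE 0.55, adjusted p 0.598), or 0.35 without DKO library 3. In both genes, as in Gdf15 and Trp53inp1, DKO library 1 lay within or below the WT range and DKO library 3 stood highest.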
